A study of Saccharomyces cerevisiae with 12 samples.

Results

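The cell wall of a xylose-utilizing strain of Saccharomyces cerevisiae was followed through 40 genes, out of 5444 genes with a named probe set on the array. The genes were taken by name from a given list of wall synthesis and wall integrity genes, with no threshold on their values, and each of the 40 is read by 1 probe set. All arrays hold the strain VTT C-10883, a MATα haploid made in the CEN.PK background with the alleles MAL2-8c and SUC2. It overexpresses its own xylulokinase gene XKS1 and carries XYL1 and XYL2, the xylose reductase and xylitol dehydrogenase genes of Scheffersomyces stipitis, in the URA3 locus, with an intact URA3 restored beside them. It was grown in anaerobic batch culture on a mixture of glucose and xylose, which it consumes one after the other. The groups were the xylose pulse, taken 1 hour after furfural (1.2 g/L) and hydroxymethylfurfural (HMF, 3.9 g/L) were added while xylose was being consumed, the xylose control without the addition, the glucose pulse, taken 1 hour after the same addition while glucose was being consumed, and the glucose control, with 3 arrays each. Both compounds are furan aldehydes, inhibitors that form when plant biomass is broken down to sugars. The methods describe the unpulsed samples both as taken just before the pulse and as an experiment without a pulse, and the labels call them only controls, so if they were taken just before, the pulse and the extra 1 hour in the reactor cannot be told apart.

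The yeast wall is a mesh of branched beta-glucan with a little chitin, to which mannoproteins are bound. Glucan chains are made by a synthase in the plasma membrane, chitin by chitin synthases, and transglycosylases outside the cell then lengthen, branch and join the chains. Mannoproteins are held through the remnant of a glycosylphosphatidylinositol (GPI) anchor or, in the case of the PIR proteins, by a direct bond to glucan. Stress on the wall is sensed by the membrane proteins of the WSC and MID2 families, which act through the GTPase Rho1 and protein kinase C on a MAP kinase cascade that ends in Slt2. Slt2 in turn activates the transcription factor Rlm1, and many wall genes are targets of this cell wall integrity pathway.

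Values are deposited log2 expression levels, on which a difference of 1 is a doubling, and each fold change is given as pulse minus control or as xylose control minus glucose control. The medians of the 12 arrays lay between 9.683 and 9.741, and arrays of one group correlated across probe sets at an r between 0.992 and 0.998. Calls were made in limma over 5489 probe sets and needed both an adjusted p (Benjamini-Hochberg) below 0.01 and a log2 change that passed 1 or -1. For the MATα label, the pheromone, receptor and agglutinin genes MF(ALPHA)1, MF(ALPHA)2, STE3 and SAG1 were read. Their means lay between 8.20 and 9.89 in the xylose control and between 12.35 and 13.35 in the glucose control. In the pulses they lay between 7.73 and 9.58 in the xylose phase and between 9.78 and 13.50 in the glucose phase. All 4 were called lower in the xylose control. After the glucose pulse 3 of them were also lower, MF(ALPHA)2, STE3 and SAG1, by log2 changes of -3.11, -1.15 and -1.45. SAG1 was lower after the xylose pulse, at -1.03. Among all probe sets 27.2%, 9.55% and 8.38% were called lower in these comparisons. The means of the MATa genes MFA1, MFA2, STE2, BAR1 and ASG7 lay between 2.51 and 6.07 in the 4 groups. Levels of different probe sets cannot be set against each other, so these values do not test the label. MFA1 was called higher in the xylose control, by 1.16, and BAR1 lower after the xylose pulse, at -1.09. Each is 20.0% of these genes, against 27.8% of all probe sets called higher and 8.38% called lower in these comparisons. A lower level in a culture can mean fewer cells with the transcript or less of it per cell, and the arrays cannot tell these apart.

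In the xylose phase the pulse was followed by higher GAS1, GAS2 and SUN4 and lower CHS2, UTR2, SIM1 and SLT2, which is 7 of the 40 genes (17.5%). The same calls were made for 20.2% of all probe sets tested, 11.8% higher and 8.38% lower. In the glucose phase FKS3, GAS2 and WSC3 rose and KNH1, WSC4, PIR3, GAS3 and SUN4 fell, 8 of 40 (20.0%), against 21.2% of all probe sets, 11.6% higher and 9.55% lower. The wall genes as a list were therefore called about as often as any other genes, and their median log2 fold change was -0.07 in the xylose phase and 0.12 in the glucose phase, where the medians of all probe sets were -0.08 and 0.03. Of 13 genes called after either pulse (32.5% of the list, against 35.4% of all probe sets), GAS2 rose in both phases and SUN4 rose in the xylose phase and fell in the glucose phase, while the remaining 11 were called in 1 phase. The 2 genes called in both phases are 5.0% of the list, near the 5.99% of all probe sets called in both.

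**Figure D1:**
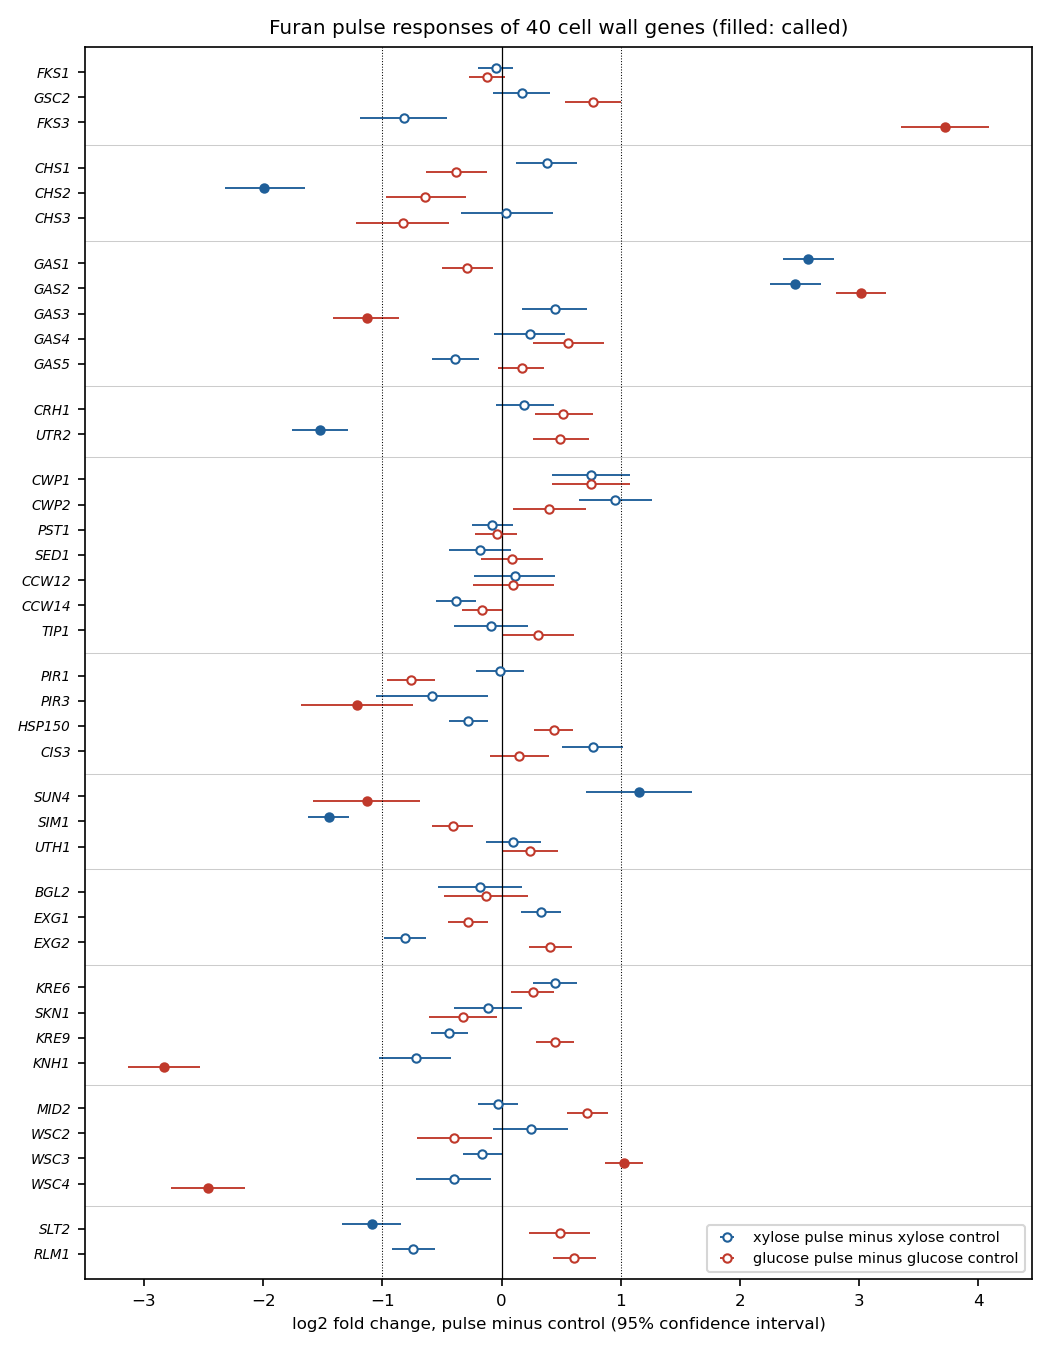
Log2 fold change (pulse minus control, x axis) of the 40 wall genes, grouped by role, with 95% confidence intervals from limma; blue is the xylose phase, red the glucose phase, filled points are called and dotted lines mark -1 and 1. Most points lie between the dotted lines, GAS2 lies beyond 2 in both phases, and the red points run from KNH1 at -2.83 to FKS3 at 3.72.

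The difference between the 2 phases in the absence of the pulse was larger. In the xylose control 12 of the 40 genes were higher and 11 lower than in the glucose control (57.5%, against 54.9% of all probe sets, 27.8% higher and 27.2% lower), and the arrays of the 2 controls did not overlap for 38 of the 40, against 88.6% of all probe sets. The share was again near that of the whole array, and the median size of the change, regardless of sign, was 1.32 among the wall genes and 1.14 over all probe sets. The changes spanned -4.31 for UTR2 to 6.04 for PIR3. The phase comparison shares its control arrays with the pulse comparisons, so the values of one gene in these comparisons are given side by side without a test of their relation. Called in at least 1 of the 3 comparisons were 25 of the 40 genes (62.5%), against 64.7% of all probe sets. After either pulse 13 were called (32.5%), against 35.4% of all probe sets, and the other 12 in the phase comparison alone.

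**Figure D2:**
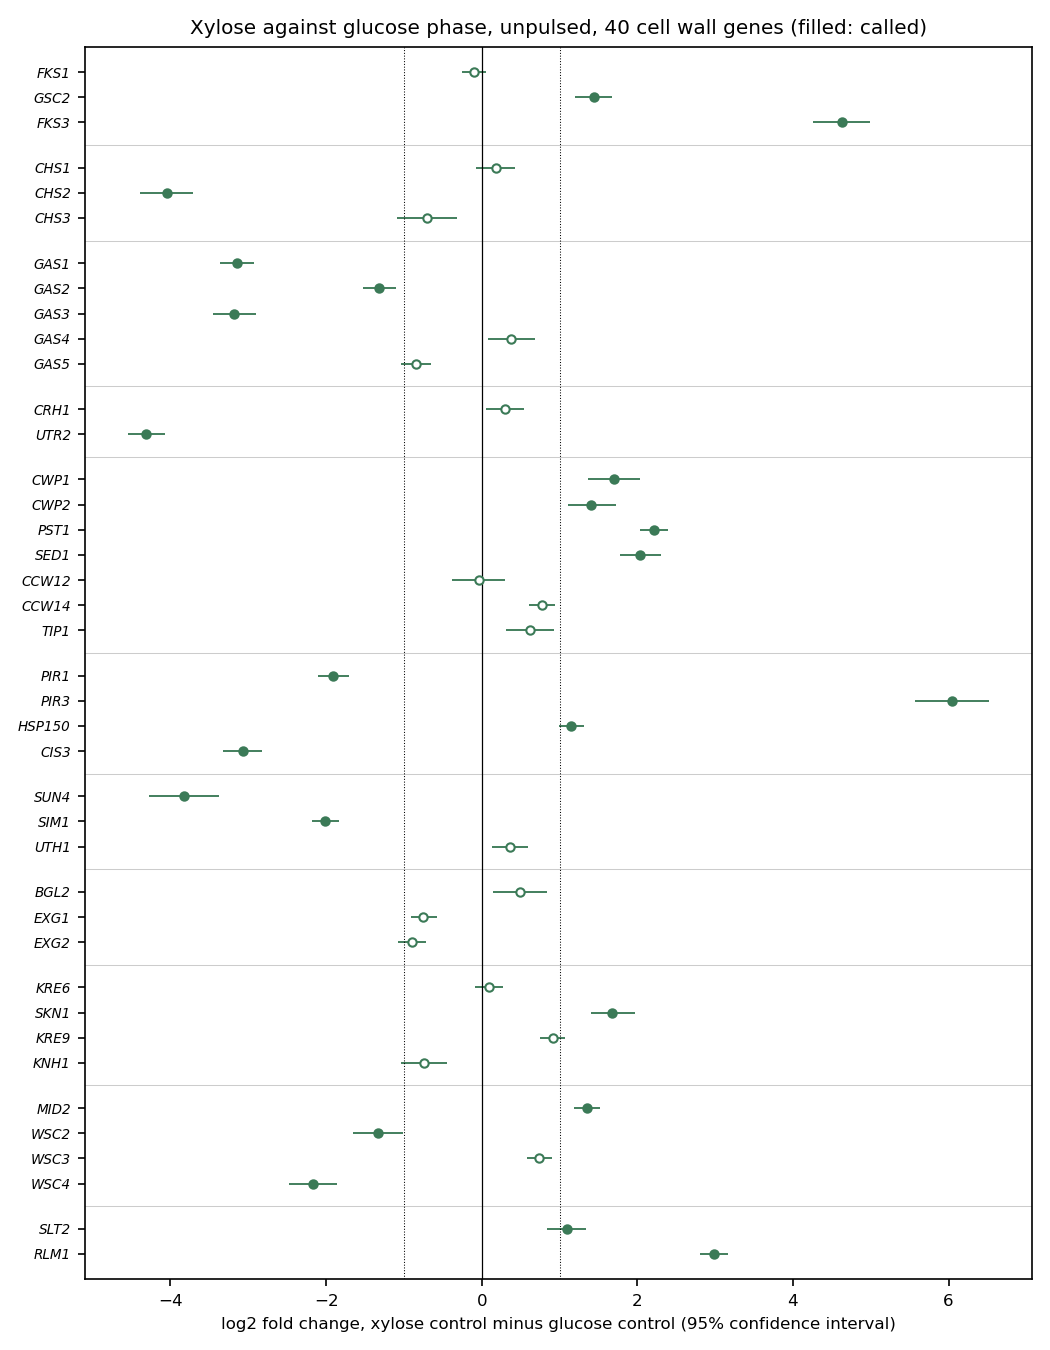
Log2 fold change of the 40 wall genes in the xylose control against the glucose control (x axis, 95% confidence intervals from limma, filled points called). PIR3 at 6.04 and FKS3 at 4.63 stand at the upper end and UTR2 at -4.31 and CHS2 at -4.05 at the lower end, and members of a single role lie on both sides of 0.

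Among the sensors, WSC4, which resembles the stress sensors of the WSC family, fell the most. Its levels were 8.38, 8.26 and 8.45 in the xylose pulse, 8.69, 8.82 and 8.78 in the xylose control, 8.18, 8.70 and 8.57 in the glucose pulse and 10.75, 11.24 and 10.83 in the glucose control. The glucose control arrays thus stood apart from the other 9. WSC4 fell by 2.46 after the pulse in the glucose phase (standard error 0.14, adjusted p = 8.6e-09, limma). In the xylose control it was lower than in the glucose control by a log2 change of -2.17 (adjusted p = 5.8e-09), and its response of -0.40 in the xylose phase was not called. The difference between the responses was 2.05 (standard error 0.20, adjusted p = 1.1e-06).

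Its relative WSC3 went the other way in the glucose phase, with 9.78, 9.88 and 9.85 in the pulse against 8.73, 8.85 and 8.84 in the control. That is a log2 change of 1.03 (standard error 0.07, adjusted p = 6.7e-08), just past the threshold, and it was 0.99 when glucose control replicate 1 was left out. In the xylose phase WSC3 had a value of -0.16, and the difference of -1.18 between the responses was called (adjusted p = 4.1e-07). WSC2 and MID2 were called in neither phase after the pulse, with responses of 0.25 and -0.03 in the xylose phase and -0.40 and 0.72 in the glucose phase. Without a pulse they parted. MID2, the sensor that works beside the WSC proteins, read 11.80, 11.70 and 11.70 in the xylose control against 10.33, 10.45 and 10.37 in the glucose control, a log2 change of 1.35 (adjusted p = 1.5e-09). WSC2 read 7.68, 7.77 and 7.81 in the xylose control against 8.90, 9.16 and 9.19 in the glucose control, a log2 change of -1.33 (adjusted p = 1.3e-06).

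SLT2 and RLM1, the MAP kinase and the transcription factor at the end of the pathway, both lay lower in the pulse than in the control in the xylose phase and higher in the pulse in the glucose phase. SLT2 stood at 10.58, 10.89 and 10.80 in the xylose pulse and 11.72, 11.85 and 11.96 in the xylose control, and at 11.02, 11.36 and 11.35 in the glucose pulse and 10.63, 10.80 and 10.84 in the glucose control. The pulse arrays were below the control arrays in the xylose phase and above them in the glucose phase. SLT2 fell by 1.09 in the xylose phase (standard error 0.12, adjusted p = 2.8e-06), and its value of 0.49 in the glucose phase was below the fold threshold.

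RLM1 stood at 10.92, 10.75 and 10.84 in the xylose pulse and 11.60, 11.60 and 11.52 in the xylose control, and at 9.07, 9.25 and 9.29 in the glucose pulse and 8.54, 8.64 and 8.60 in the glucose control. Its responses of -0.74 and 0.61 had adjusted p of 4.3e-06 in the xylose phase and 2.4e-05 in the glucose phase but did not reach a log2 change of 1. The difference between the responses was called for both genes, at -1.58 for SLT2 (standard error 0.16, adjusted p = 1.8e-06) and -1.35 for RLM1 (standard error 0.12, adjusted p = 3.2e-07). Both were also higher in the xylose control than in the glucose control, SLT2 by a log2 change of 1.09 (adjusted p = 9.7e-07) and RLM1 by 2.98 (adjusted p = 9.7e-13).

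The other genes of the integrity pathway were counted from a list that spans the exchange factors, Rho1, Pkc1, the kinases above Slt2 and its phosphatases. Of 15 measured, 1 was higher and 2 lower after the xylose pulse, 2 higher and 1 lower after the glucose pulse (20.0% in each), and 5 higher and 1 lower in the xylose control, where the shares of all probe sets called were 20.2%, 21.2% and 54.9%. Below the fold threshold, most of the 15 were lower after the xylose pulse. Their median log2 change was -0.74, against -0.08 for all probe sets, and only MKK1 (0.12) and PTP3 (1.31) had positive values. An adjusted p under 0.01 was found for 12, and pulse and control arrays did not overlap for 14. The shares of all probe sets were 60.8% and 73.6%. After the glucose pulse the median was -0.11, against 0.03. SDP1, a phosphatase that acts on Slt2, and ROM1, an exchange factor for Rho1, had the order of groups seen for RLM1, with the xylose control highest and the glucose control lowest. SDP1 averaged 9.87 in the xylose pulse, 10.63 in the xylose control, 8.44 in the glucose pulse and 5.95 in the glucose control. It rose by 2.49 in the glucose phase (adjusted p = 2.0e-09), where the control was dim and the size is not exact. ROM1 averaged 9.32 in the xylose pulse, 10.10 in the xylose control, 8.96 in the glucose pulse and 7.16 in the glucose control, and rose by 1.80 in the glucose phase (adjusted p = 4.2e-08).

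PTP3, a tyrosine phosphatase of MAP kinases, rose in the xylose phase, where SLT2 fell, and fell in the glucose phase, where SLT2 had an uncalled value of 0.49. It read 9.71, 9.46 and 9.21 in the xylose pulse against 8.15, 8.29 and 7.99 in the xylose control, and 7.70, 7.12 and 7.33 in the glucose pulse against 8.84, 8.47 and 8.54 in the glucose control. The log2 fold change was 1.31 in the xylose phase (adjusted p = 1.1e-05) and -1.23 in the glucose phase (adjusted p = 1.8e-05), and the difference between them was 2.55 (standard error 0.23, adjusted p = 4.6e-07). PTP2, its partner, fell by 1.06 in the xylose phase, and KDX1, a kinase-like relative of Slt2 whose gene is a target of the pathway, fell by 1.25. MTL1, a sensor related to MID2, was higher in the xylose control by a log2 change of 3.72.

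Among 10 genes known as targets of Slt2 and Rlm1, of which PST1, CRH1, CWP1, PIR3, HSP150, CIS3, SED1 and SLT2 are also wall genes counted above, none was higher after the xylose pulse and 3 were lower (KDX1, SLT2 and PRM5), 30.0% against 20.2% of all probe sets. In the glucose phase PRM5 was higher and PIR3 lower, 20.0% against 21.2%. In the xylose control 7 were higher than in the glucose control and 1, CIS3, was lower (80.0%, against 54.9% of all probe sets, a description of a short list). PRM5, a membrane protein gene, had 10.45, 10.47 and 10.93 in the xylose pulse against 11.71, 11.65 and 11.71 in the xylose control, and 11.28, 11.58 and 11.73 in the glucose pulse against 9.46, 9.71 and 9.47 in the glucose control. Its difference between the responses was -3.06 (standard error 0.20, adjusted p = 2.2e-08).

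The 3 genes of the glucan synthase family behaved differently. FKS1, which encodes the main catalytic subunit in growing cells, was called in no comparison, and its 12 values lay between 12.50 and 12.73. Its log2 fold change was -0.05 in the xylose phase (95% confidence interval -0.20 to 0.10), -0.12 in the glucose phase (-0.27 to 0.03) and -0.10 between the controls (-0.25 to 0.05). GSC2, which encodes the alternative subunit, read 13.49, 13.60 and 13.58 in the xylose control against 11.94, 12.22 and 12.20 in the glucose control. That is a log2 change of 1.44 (standard error 0.11, adjusted p = 2.5e-08). The pulse arrays of GSC2 averaged 13.73 in the xylose phase, and in the glucose phase they averaged 12.89, a response of 0.77 that did not reach the fold threshold.

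FKS3, a homologue linked to the spore wall, had the largest pulse response of the 40 genes. It read 6.76, 7.02 and 7.33 in the xylose pulse, 7.76, 7.84 and 7.99 in the xylose control, 6.68, 7.11 and 7.08 in the glucose pulse and 3.14, 3.54 and 3.02 in the glucose control. The glucose control was low and the other 3 groups lay between 6.68 and 7.99. The log2 fold change was 3.72 after the glucose pulse (standard error 0.17, adjusted p = 8.7e-10) and 4.63 in the xylose control against the glucose control (adjusted p = 1.2e-11). In the xylose phase it was -0.82, which was not called, and the difference between the responses was -4.54 (standard error 0.24, adjusted p = 3.5e-09). FKS3 is among the 3 wall genes in the dimmest 25% of the named probe sets by the mean over all arrays, along with CHS2 and GAS4. Detection calls were not used here, so the size of a change with such a dim side is not exact. The same holds for other wall genes with a group mean below 8.097, the lowest of the lower quartiles of the arrays. These are PIR3 in both glucose groups and UTR2 and WSC2 in both xylose groups. They are also GAS2 in both controls, SUN4 in the xylose control and KNH1 in the glucose pulse.

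Of 9 further genes of glucan synthesis, 2 were higher and 1 lower after the xylose pulse (33.3%, against 20.2% of all probe sets) and 1 was higher after the glucose pulse (11.1%, against 21.2%). SMI1, which coordinates glucan synthesis with growth, read 10.25, 10.27 and 10.32 in the xylose pulse against 8.46, 8.46 and 8.50 in the xylose control, and 10.09, 10.05 and 9.98 in the glucose pulse against 9.92, 10.02 and 10.10 in the glucose control. The xylose control was thus the low group, with a response of 1.81 in the xylose phase (adjusted p = 4.2e-10) and of 0.03 in the glucose phase. BIG1, a membrane protein needed for normal glucan content, rose by 1.65 in the xylose phase, and KEG1, which binds Kre6, rose by 1.28 in the glucose phase.

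Of the chitin synthase genes, CHS2, whose enzyme lays down the primary septum between mother and daughter cell, was called in the xylose phase and between the controls. It read 3.56, 3.51 and 3.98 in the xylose pulse, 5.35, 6.03 and 5.63 in the xylose control, 9.14, 9.11 and 9.01 in the glucose pulse and 9.76, 9.69 and 9.70 in the glucose control. All xylose arrays were below all glucose arrays, and in each phase the pulse was below the control. CHS2 fell by 1.99 in the xylose phase (standard error 0.16, adjusted p = 1.6e-07), where the levels are at the dim end of the arrays, and its value of -0.64 in the glucose phase was not called. Between the controls the log2 fold change was -4.05 (adjusted p = 2.1e-11), and the difference between the responses was -1.35 (standard error 0.22, adjusted p = 1.1e-04).

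CHS1, which encodes a repair enzyme, and CHS3, which encodes the synthase of most wall chitin, were called in no comparison. CHS1 had responses of 0.38 in the xylose phase and -0.38 in the glucose phase, and CHS3 of 0.04 and -0.83. The difference between the responses of CHS3 was 0.87, and 1.01 or 1.02 when glucose control replicate 1 or xylose pulse replicate 1 was left out, which is past the threshold. Among 12 other genes of chitin synthesis and turnover, 1 was higher and 1 lower after the xylose pulse and 2 were higher after the glucose pulse (16.7% in each, against 20.2% and 21.2% of all probe sets). CHS7, which lets Chs3 leave the endoplasmic reticulum, fell by 1.67 in the xylose phase (adjusted p = 9.5e-09). CHS6, one of the proteins that carry Chs3 to the plasma membrane, rose by 1.98 in the glucose phase (adjusted p = 1.6e-08).

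The GAS genes encode beta-glucanosyltransferases, GPI-anchored enzymes that lengthen glucan chains. GAS1, the main one in growing cells, had one low group. It read 12.34, 12.49 and 12.61 in the xylose pulse against 10.03, 10.00 and 9.70 in the xylose control, and 12.72, 12.81 and 12.79 in the glucose pulse against 13.09, 13.00 and 13.09 in the glucose control. After the xylose pulse it rose by 2.57 (standard error 0.10, adjusted p = 3.1e-10), while its response of -0.29 in the glucose phase was not called. In the xylose control it was lower than in the glucose control by a log2 change of -3.15 (adjusted p = 3.2e-12), and the difference between the responses was 2.86 (standard error 0.14, adjusted p = 2.1e-09).

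GAS2, one of the enzymes of the spore wall, rose after the pulse in both phases. Its levels were 8.91, 9.10 and 9.09 in the xylose pulse against 6.37, 6.75 and 6.59 in the xylose control, and 10.91, 10.91 and 10.90 in the glucose pulse against 7.91, 7.94 and 7.80 in the glucose control. The log2 fold change was 2.46 in the xylose phase (standard error 0.10, adjusted p = 4.0e-10) and 3.02 in the glucose phase (standard error 0.10, adjusted p = 4.9e-11). The difference of -0.55 was not called (adjusted p = 0.00288, 95% confidence interval -0.86 to -0.25). The controls of GAS2 were dim in both phases, so the sizes of its changes are not exact. GAS4, the other spore wall enzyme, had means between 3.27 and 3.89 in the 4 groups and was called in no comparison.

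Sporulation genes were measured beside GAS2 and FKS3, since both are linked to the spore wall. After the xylose pulse none of 8 was higher and 1 was lower, with responses between -1.22 and 0.95, against 11.8% higher and 8.38% lower among all probe sets. In the glucose phase 4 were higher (SPO11, SPR3, DIT1 and NDT80) and 1, SPS4, was lower. These are 50.0% and 12.5% of this short list, against 11.6% and 9.55% of all probe sets. In the xylose control 4 were higher than in the glucose control (50.0%, against 27.8% of all probe sets) and none was lower. The means of all 8 in the glucose control lay between 2.73 and 7.12. The lower quartile of every array was 8.097 or more, so these levels are dim and the sizes are not exact. NDT80, the transcription factor of middle sporulation genes, went opposite ways in the phases, with a log2 change of -1.22 in the xylose phase and 2.83 in the glucose phase. DIT1, an enzyme of the outer spore wall, rose by 1.96 in the glucose phase. Whether these genes and GAS2 or FKS3 share a cause was not tested.

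GAS3 fell in the glucose phase, with 10.42, 10.53 and 10.44 in the pulse against 11.69, 11.43 and 11.67 in the control, a log2 change of -1.13 (standard error 0.13, adjusted p = 4.3e-06). In the xylose phase it read 8.83, 8.85 and 8.91 in the pulse against 8.08, 8.66 and 8.50 in the control, and its response of 0.45 was not called. Its xylose response minus its glucose response was 1.58 (standard error 0.18, adjusted p = 4.3e-06), and the 2 controls differed by -3.18 (adjusted p = 3.2e-11). GAS5, an enzyme of vegetative cells, was called in no comparison, and its change between the controls was -0.85.

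CRH1 and UTR2 encode the transglycosylases that join chitin to glucan. They went apart in the xylose phase and between the controls, but not in the glucose phase. UTR2 read 6.17, 6.55 and 6.35 in the xylose pulse, 7.81, 7.95 and 7.87 in the xylose control, 12.76, 12.58 and 12.70 in the glucose pulse and 12.34, 12.05 and 12.17 in the glucose control. The xylose arrays were all below the glucose arrays, and the pulse lay below the control in the xylose phase and above it in the glucose phase. UTR2 fell by 1.52 after the xylose pulse (standard error 0.11, adjusted p = 5.6e-08), and its response of 0.49 in the glucose phase was not called. The difference of -2.02 between the responses was called (standard error 0.15, adjusted p = 8.1e-08), and the controls differed by -4.31 (adjusted p = 3.8e-13). The xylose levels of UTR2 were dim, so these sizes are not exact. CRH1 was called in no comparison. Its means were 11.91 in the xylose pulse, 11.72 in the xylose control, 11.95 in the glucose pulse and 11.42 in the glucose control. Its responses were 0.19 in the xylose phase and 0.52 in the glucose phase, the latter near that of UTR2. CRR1, the third member of this family, which acts in spore wall assembly, rose by 1.28 in the xylose phase and by 1.17 in the glucose phase. Its means were 6.38 in the xylose pulse against 5.09 in the xylose control and 4.62 in the glucose pulse against 3.45 in the glucose control, at the dim end of the arrays.

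**Figure D3:**
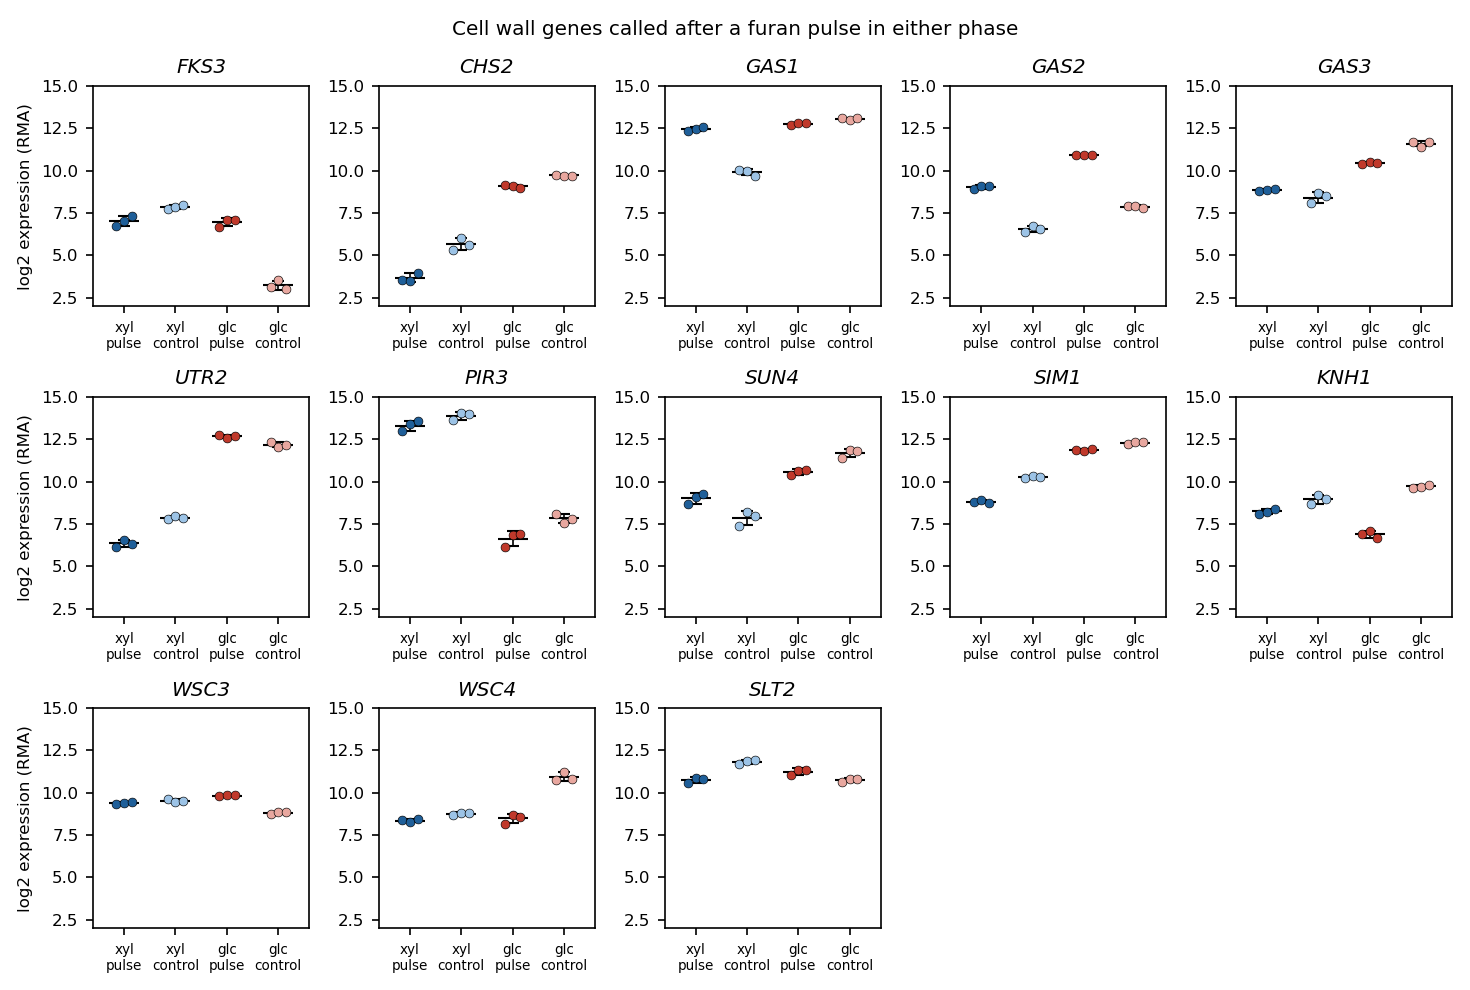
Log2 expression (y axis) of the 13 wall genes called after the pulse in either phase, in the xylose pulse, xylose control, glucose pulse and glucose control; points are arrays, black bars the mean ± SD of 3 arrays. FKS3 and WSC4 have a glucose control that stands apart from the other groups, GAS1 a xylose control between 9.70 and 10.03 below all other arrays, and GAS2 is higher in the pulse in both phases.

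The 7 GPI wall proteins, a short list, were called in neither phase after the pulse. Of all probe sets, 20.2% were called after the xylose pulse and 21.2% after the glucose pulse. Their responses lay between -0.38 and 0.95 in the xylose phase and between -0.16 and 0.75 in the glucose phase, and the differences between the responses lay between -0.39 and 0.55. Without a pulse, 4 of the 7 were higher in the xylose control than in the glucose control and none was lower (57.1% called, near the 54.9% of all probe sets, of which 27.8% were higher and 27.2% lower). PST1, a target of the integrity pathway, had 13.97, 13.90 and 13.88 in the xylose control against 11.74, 11.71 and 11.65 in the glucose control, a log2 change of 2.22 (standard error 0.08, adjusted p = 1.2e-11). SED1, a major structural protein of stationary cells, had 13.79, 14.11 and 14.07 in the xylose control against 11.99, 11.95 and 11.91 in the glucose control, a change of 2.04 (standard error 0.12, adjusted p = 1.8e-09).

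CWP1, a mannoprotein found at birth scars, read 10.47, 10.85 and 10.73 in the xylose control against 8.71, 9.06 and 9.18 in the glucose control. That is a log2 change of 1.70 (standard error 0.15, adjusted p = 1.6e-07). CWP2, a major constituent of the wall, read 12.18, 12.45 and 12.35 in the xylose control against 10.78, 11.18 and 10.78 in the glucose control, a log2 change of 1.41 (standard error 0.14, adjusted p = 4.7e-07). CWP2 came close to a call after the xylose pulse, with 13.02, 13.41 and 13.42 and a response of 0.95 (95% confidence interval 0.65 to 1.26), and was past the threshold at 1.02 or 1.08 when xylose control replicate 2 or xylose pulse replicate 1 was left out.

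The responses of CWP1 were 0.75 in both phases, with an adjusted p of 6.9e-04 in the xylose phase and 7.4e-04 in the glucose phase. CCW12, CCW14 and TIP1 were called in no comparison. CCW12, the abundant mannoprotein that stabilizes the wall at sites of growth, had changes of 0.11 in the xylose phase (95% confidence interval -0.23 to 0.45), 0.10 in the glucose phase (-0.24 to 0.44) and -0.04 between the controls (-0.38 to 0.30). CCW14 and TIP1 had changes of 0.77 and 0.62 between the controls.

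The 4 PIR proteins, which are bound directly to glucan, had the widest range of the phase comparison among the roles of the 40 genes, from -3.07 to 6.04. All 4 were called, 2 in each direction. PIR3 read 12.99, 13.38 and 13.58 in the xylose pulse, 13.63, 14.03 and 14.01 in the xylose control, 6.12, 6.86 and 6.92 in the glucose pulse and 8.12, 7.59 and 7.83 in the glucose control. The xylose arrays were all above the glucose arrays by more than the spread within any group. The log2 fold change between the controls was 6.04 (standard error 0.22, adjusted p = 1.1e-11). The glucose levels of PIR3 were dim, so this size is not exact. After the glucose pulse PIR3 fell by 1.21 (standard error 0.22, adjusted p = 2.7e-04), but this call rested on 1 array, since it was -0.96 without glucose pulse replicate 1. In the xylose phase the response was -0.58 and was not called.

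PIR1 read 10.54, 10.76 and 10.56 in the xylose control against 12.62, 12.45 and 12.52 in the glucose control, a log2 change of -1.91 (standard error 0.09, adjusted p = 1.9e-10). Its responses to the pulse, -0.01 in the xylose phase and -0.76 in the glucose phase, were not called. HSP150, the heat shock inducible member, read 14.17, 14.08 and 14.04 in the xylose control against 12.89, 12.93 and 13.01 in the glucose control, a log2 change of 1.15 (standard error 0.08, adjusted p = 5.9e-09). CIS3 read 10.12, 10.26 and 10.05 in the xylose control against 13.09, 13.27 and 13.29 in the glucose control, a log2 change of -3.07 (standard error 0.12, adjusted p = 1.9e-11). Neither was called after the pulse, with responses of -0.28 for HSP150 and 0.77 for CIS3 in the xylose phase and of 0.44 and 0.15 in the glucose phase. PIR5, a further family member, had a change of 0.70 between the controls and was called in no comparison.

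Several of these genes lie next to each other on the chromosome, in the RefSeq annotation of assembly R64. PIR1 and PIR3 are neighbours on chromosome XI and differed in the sign of their phase change, -1.91 against 6.04. HSP150 and CIS3 are neighbours on chromosome X, with changes of 1.15 and -3.07. FKS3 lies next to GAS1 on chromosome XIII, with changes of 4.63 and -3.15, and SCW10, a wall protein gene with similarity to glucanases, lies on the other side of FKS3. SCW10 read 10.43, 10.83 and 10.71 in the xylose pulse against 7.31, 7.60 and 7.48 in the xylose control, and 12.14, 12.07 and 12.10 in the glucose pulse against 11.47, 11.50 and 11.50 in the glucose control. Its response of 3.19 in the xylose phase (adjusted p = 8.4e-11) and its change of -4.03 between the controls ran in the direction of GAS1 and not of FKS3. CWP2 and CWP1, also neighbours on chromosome XI, both rose in the xylose control, by 1.41 and 1.70. PIR5 lies on the other side of HSP150, and its uncalled change of 0.70 ran in the direction of HSP150. SCW11 and CWH41 of the further lists, neighbours on chromosome VII, both changed downward, by -2.28 and -1.32.

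**Figure D4:**
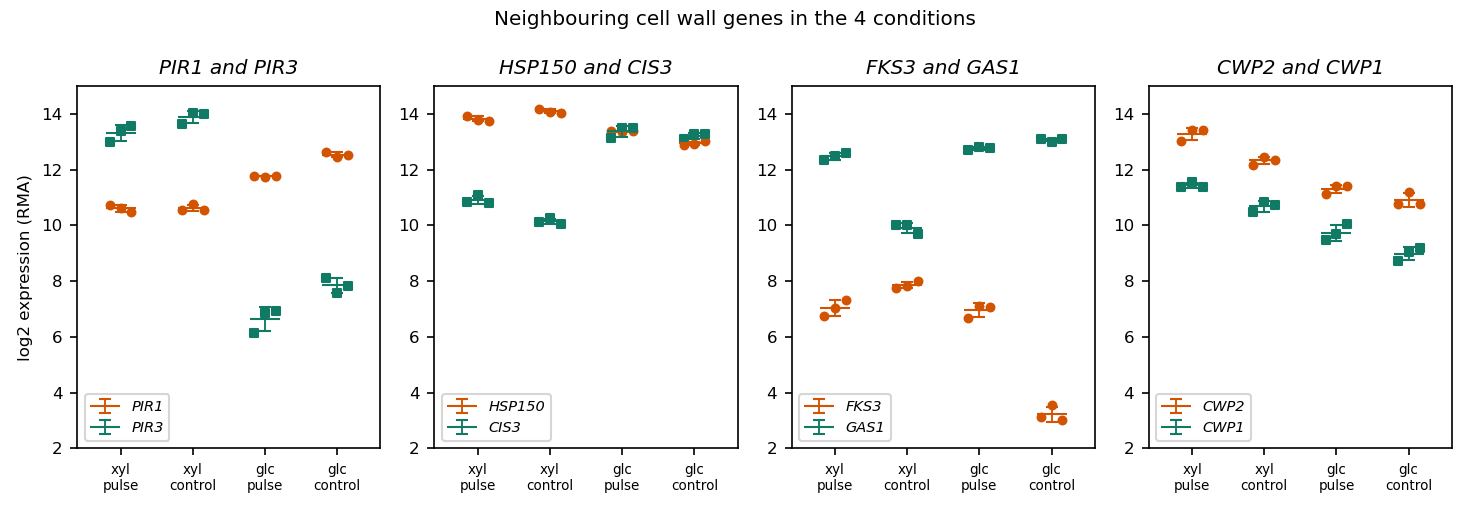
Log2 expression (y axis) of 4 pairs of neighbouring wall genes in the xylose pulse, xylose control, glucose pulse and glucose control; points are arrays and bars the mean ± SD of 3 arrays. Within the PIR1 and PIR3, HSP150 and CIS3, and FKS3 and GAS1 pairs the xylose control moved in opposite directions from the glucose control, and in the CWP2 and CWP1 pair in the same direction; levels of different probe sets are not comparable with each other.

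The SUN family holds proteins with a part in septation and wall remodelling. SUN4, needed for the separation of daughter cells, was called in opposite directions in the 2 phases. It read 8.68, 9.09 and 9.30 in the xylose pulse against 7.41, 8.23 and 7.97 in the xylose control, and 10.37, 10.65 and 10.68 in the glucose pulse against 11.42, 11.86 and 11.81 in the glucose control. The pulse arrays lay above the control arrays in the xylose phase and below them in the glucose phase. The log2 fold change was 1.15 in the xylose phase (standard error 0.21, adjusted p = 2.5e-04) and -1.13 in the glucose phase (standard error 0.21, adjusted p = 3.1e-04), and the difference between them was 2.28 (standard error 0.29, adjusted p = 1.2e-05). The call in the xylose phase was lost, at 0.93, when xylose control replicate 1 was left out. The controls differed by -3.83 (adjusted p = 7.0e-10).

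SIM1 read 8.83, 8.94 and 8.73 in the xylose pulse against 10.24, 10.33 and 10.29 in the xylose control, and 11.89, 11.83 and 11.94 in the glucose pulse against 12.22, 12.33 and 12.33 in the glucose control. It fell by 1.45 in the xylose phase (standard error 0.08, adjusted p = 5.7e-09), and its value of -0.41 in the glucose phase was not called. The difference between the responses was -1.04 (adjusted p = 2.3e-06), and -0.99 without xylose pulse replicate 3. The controls differed by -2.01. UTH1 was called in no comparison, with all 12 values between 13.03 and 13.69. NCA3, a further gene of this family, had 12.31, 12.74 and 12.53 in the xylose pulse against 10.01, 10.26 and 10.22 in the xylose control, and 10.83, 11.04 and 10.94 in the glucose pulse against 3.96, 4.61 and 4.70 in the glucose control. It rose by 2.36 in the xylose phase (adjusted p = 7.4e-08) and by 6.51 in the glucose phase (adjusted p = 6.9e-12), where the control was dim.

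None of the 3 glucanase genes was called after a pulse or between the controls, where 64.7% of all probe sets were called at least once. BGL2, a major glucanase of the wall, had changes of -0.18 in the xylose phase (95% confidence interval -0.53 to 0.17), -0.13 in the glucose phase (-0.48 to 0.22) and 0.49 between the controls (0.14 to 0.84). EXG1, the main exoglucanase, had changes of 0.33, -0.28 and -0.75 in the same comparisons. EXG2, a membrane-anchored exoglucanase, read 9.44, 9.16 and 9.28 in the xylose pulse against 10.18, 10.06 and 10.08 in the xylose control, and 11.42, 11.44 and 11.36 in the glucose pulse against 11.01, 10.95 and 11.03 in the glucose control. Its responses of -0.81 and 0.41 did not reach the fold threshold, and their difference of -1.22 was called (standard error 0.12, adjusted p = 8.3e-07).

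The genes of the other branch of glucan, the beta-1,6-linked chains that hold the mannoproteins, come as 2 pairs of homologues. KRE9 was called in no comparison, with means of 12.46 in the xylose pulse, 12.90 in the xylose control, 12.44 in the glucose pulse and 11.99 in the glucose control. Its homologue KNH1 read 8.12, 8.24 and 8.38 in the xylose pulse against 8.69, 9.22 and 9.01 in the xylose control, and 6.89, 7.10 and 6.67 in the glucose pulse against 9.65, 9.70 and 9.81 in the glucose control. KNH1 fell by 2.83 in the glucose phase (standard error 0.14, adjusted p = 1.8e-09), its value of -0.72 in the xylose phase was not called, and the difference between the responses was 2.11 (standard error 0.20, adjusted p = 6.5e-07).

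In the other pair, KRE6 was called in no comparison, with responses of 0.45 in the xylose phase and 0.26 in the glucose phase and a change of 0.09 between the controls (95% confidence interval -0.09 to 0.28). SKN1, its homologue, read 11.49, 11.90 and 11.85 in the xylose control against 9.95, 10.25 and 9.98 in the glucose control, a log2 change of 1.68 (standard error 0.13, adjusted p = 3.6e-08). After the pulse it had responses of -0.11 in the xylose phase and -0.32 in the glucose phase, neither of which was called.

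Set side by side, the responses of the 40 genes in the 2 phases were weakly correlated. Across genes, the xylose and glucose responses correlated at a Pearson r of 0.162 and a Spearman rho of 0.013 over the 40 wall genes, and at -0.08 and -0.123 over all 5489 probe sets, where genes are not independent and no test was made. The difference between the responses was called for 13 of the 40 genes (32.5%), 5 higher and 8 lower in the xylose phase, against 38.9% of all probe sets, 19.0% higher and 19.9% lower. For FKS3, KNH1, WSC4, WSC3 and GAS3 the glucose response was the called one, for GAS1, UTR2, CHS2, SIM1 and SLT2 the xylose response, for SUN4 both, and for RLM1 and EXG2 neither. The glucose pulse arrays did not overlap the glucose control arrays for 34 of the 40 genes, against 71.4% of all probe sets, and the xylose pulse arrays did not overlap their controls for 27, against 73.6%.

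**Figure D5:**
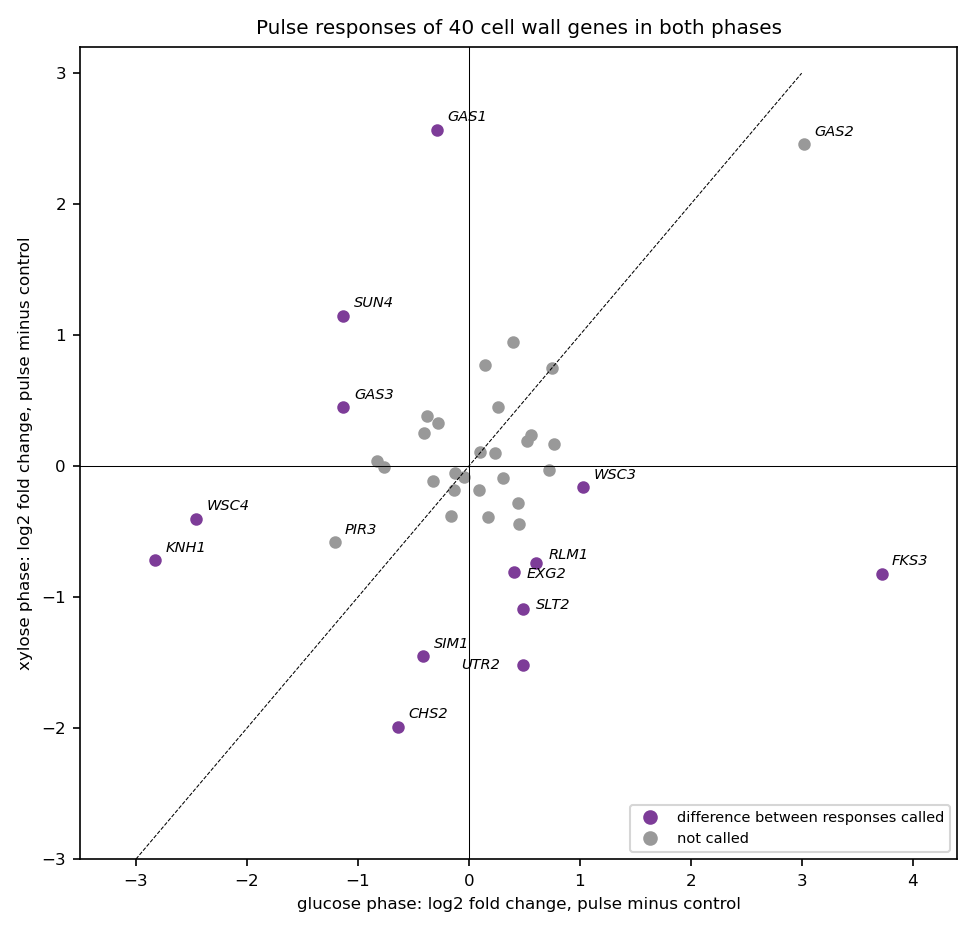
Log2 fold change after the pulse in the xylose phase (y axis) against that in the glucose phase (x axis) for the 40 wall genes; purple points have a called difference between the responses and the dashed line marks equal responses. GAS2 lies near the dashed line at 3.02 and 2.46, while FKS3, GAS1, KNH1 and WSC4 lie far from it.

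Many changes with a low adjusted p were under the fold threshold, among the wall genes as among all probe sets. In the xylose phase 21 of 40 genes had an adjusted p under 0.01, 14 of them with a log2 change between -1 and 1. Of all probe sets, 60.8% had such an adjusted p and 20.2% were called. In the glucose phase 24 genes had an adjusted p under 0.01, 16 of them with such a small change. Of all probe sets, 57.7% had such an adjusted p and 21.2% were called. Called in no comparison between conditions were 15 genes, which is 37.5% of the list. Of all probe sets, 64.7% were called in at least 1 of these comparisons. The 15 genes were BGL2, CCW12, CCW14, CHS1, CHS3, CRH1, EXG1, EXG2, FKS1, GAS4, GAS5, KRE6, KRE9, TIP1 and UTH1. They include FKS1, CHS3 and KRE6, main genes of glucan and chitin synthesis, and also CRH1, KRE9 and CCW12.

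Among 19 further wall proteins, 3 were higher and 2 lower after the xylose pulse (26.3%), 4 were higher and none lower after the glucose pulse (21.1%), and 6 were higher and 8 lower in the xylose control (73.7%). The shares of all probe sets were 20.2%, 21.2% and 54.9%, so the shares after the pulses were near those of the whole array. YGP1, a secreted glycoprotein related to a sporulation protein, averaged 13.64 in the xylose pulse, 13.82 in the xylose control, 13.46 in the glucose pulse and 8.72 in the glucose control, and rose by 4.74 in the glucose phase. SPI1, a GPI wall protein, averaged 13.70 in the xylose pulse, 13.85 in the xylose control, 10.92 in the glucose pulse and 8.47 in the glucose control, and rose by 2.46 in the glucose phase. As with FKS3 and WSC4, the glucose control was the group that stood apart for YGP1. TOS6 and SVS1, wall protein genes whose levels were lower in the xylose control, changed by -6.23 and -5.36 between the controls. Their means of 5.17 and 5.88 in the xylose control were dim, so these sizes are not exact.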

How the data were processed

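Total RNA of 12 samples was labelled and hybridised to Affymetrix Yeast Genome 2.0 arrays. Per the labels and the methods, the authors made the deposited log2 values with RMA in R 2.15.3, which corrects background, normalizes arrays by quantiles and summarizes each probe set, and so all arrays share nearly one distribution and a change is relative to the other transcripts. Of 5705 probe sets, 5489 carry 1 gene in the platform annotation and 216 none. The values were used without a filter. One mean per group was fitted to the 12 arrays in limma 3.58.1 (R 4.3.3, lmFit and eBayes, 8 residual and 4.53 prior degrees of freedom), with Benjamini-Hochberg adjustment over 5489 probe sets, at the study's thresholds of 0.01 and a log2 change of 1. Contrasts were each pulse against its control, the xylose response minus the glucose response, and the xylose against the glucose control. After each pulse the study reports fewer genes higher and fewer lower at the same thresholds than were called here. The reason was not tested. The model was run on simulated data with independent noise in each array. That run does not cover the correlations by replicate number given below.

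The members were named by symbol, and no expression value enters the rule, but the list of members and the further lists were drawn up with earlier results of these data known. All members are accounted for. Members called in a comparison are given by array, and from each further list up to 4 called genes per comparison with the largest changes, plus relatives of members, could be named. WSC1, KRE11 and FLO5 of these lists were not analysed here. A gene with several probe sets is represented by the brightest.

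Pulse and control arrays of one replicate number were compared by their deviations from their group means. The deviations correlated at 0.569, 0.299 and 0.305 in the xylose phase. In the glucose phase they correlated at 0.474, 0.381 and 0.145, and all were over 0.1. Arrays of one number in different phases correlated at 0.069 to 0.599, and arrays of different numbers at -0.563 to 0.412. In the groups compared, replicate 1 correlated negatively with replicates 2 and 3 (-0.563 to -0.141). Replicates 2 and 3 correlated positively with each other (0.059 to 0.412). Whether a number pairs arrays within a phase cannot be told from these values. The labels do not say what a number marks. Per the methods, each condition was sampled from 3 separate bioreactors, and p-values measure the spread between these arrays. The study states no block, and the model has none. The number of arrays limits the precision. Alternatives were a replicate block, own arrays only, all probe sets, the dimmest 25% left out, further quantile normalization, median centring, a trended and robust prior, a threshold of 0.05 on the adjusted p, averaging probe sets of 1 gene, and omitting each array in turn.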

Additional observations from a re-analysis of the deposited data

Results flagged for a closer look

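The response to the pulse differed between the phases, by limma's contrast of the 2 responses, for 13 wall genes. The xylose response minus the glucose response was 2.86 for GAS1, 2.28 for SUN4, 2.11 for KNH1, 2.05 for WSC4 and 1.58 for GAS3. It was -4.54 for FKS3, -2.02 for UTR2, -1.58 for SLT2, -1.35 for RLM1, -1.35 for CHS2, -1.22 for EXG2, -1.18 for WSC3 and -1.04 for SIM1. The same contrast was called for 38.9% of all probe sets. Groups of 3 arrays are too small for a test of outlying arrays.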

How the results depend on the processing

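The 4 comparisons gave 160 results for the 40 wall genes, of which 51 were called, and 23 alternatives were run, 2 of them chosen after seeing the data (a replicate block within each phase, and replicates 2 and 3 only). No called result changed sign under any of them. The replicate block, in either form, changed no call, with 3 genes higher and 4 lower after the xylose pulse and 3 higher and 5 lower after the glucose pulse. Leaving out each array in turn gave 2 to 4 genes higher and 4 lower after the xylose pulse, 2 to 3 higher and 4 to 5 lower after the glucose pulse, 5 to 6 higher and 7 to 8 lower for the difference between the responses, and 12 higher and 11 lower in the xylose control. These counts stayed within 1.5 times those reported under the other alternatives. Leaving out the dimmest 25% removes FKS3, CHS2 and GAS4 from the tests.

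Calls were lost when 1 array was left out for PIR3 after the glucose pulse (range -1.35 to -0.96), WSC3 after the glucose pulse (0.99 to 1.06), SUN4 after the xylose pulse (0.93 to 1.34) and the SIM1 difference (-1.10 to -0.99), and gained for CWP2 after the xylose pulse (0.88 to 1.08) and the CHS3 difference (0.69 to 1.02). With replicates 2 and 3 only, PIR3 was -0.82 and CWP2 1.01. The sign of 14 uncalled results changed under some alternative. Further quantile normalization gave 0.00 for PIR1 after the xylose pulse, -0.01 for FKS1, 0.11 for GAS4 and -0.05 for CWP1 in the difference between the responses, and -0.54 for GAS4 between the controls, and replicates 2 and 3 only gave -0.07 for the CWP1 difference. The cause was not tested. Over single arrays left out, uncalled values crossed 0 after the xylose pulse for CHS3 (-0.07 to 0.19), TIP1 (-0.25 to 0.03), PIR1 (-0.07 to 0.06) and MID2 (-0.05 to 0.00), after the glucose pulse for CCW12 (-0.06 to 0.26) and BGL2 (-0.26 to 0.03), in the difference for CWP1 (-0.12 to 0.16), CCW12 (-0.15 to 0.18), PST1 (-0.11 to 0.01) and BGL2 (-0.21 to 0.08), and between the controls for CCW12 (-0.20 to 0.06).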
